A study of Schizosaccharomyces pombe with 6 samples.

Results

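The 60 loci described here are the small nucleolar and small nuclear RNA loci of the fission yeast *Schizosaccharomyces pombe* in a poly(A)+ RNA-seq experiment. They are the rows of the count table whose identifier starts with SPSNORNA (53 loci) or SPSNRNA (7 loci), out of 6988 loci in all. The rule uses the identifier alone, but it was set with earlier results of these data known. By their RefSeq names, 20 of the 60 were taken as box H/ACA snoRNAs, with *snR30*, named U17, placed among them by its symbol. A further 35 are other snoRNAs, both copies of U3 among them, and most of their names give no box class. The remaining 5 are the spliceosomal snRNAs U1, U2, U4, U5 and U6. The identifier therefore departs from the name at *snu3* and *snu32*, which carry the SPSNRNA prefix but encode U3, a snoRNA of pre-rRNA processing.

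RNA came from 3 cultures of *siw14*∆ cells, which lack an inositol pyrophosphatase of the cysteinyl-phosphatase type, and from 3 cultures of the wild-type parent, with a library made from each. The mutant is labelled h- *siw14*∆::HygMX, a single strain whose gene is deleted with a hygromycin resistance marker, and the wild type is labelled h-. Both strains grew vegetatively to log phase in the rich medium YES at 30°C, and the libraries were stranded and made from poly(A)-selected RNA. The experiment asked which transcripts differ when Siw14 is missing.

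snoRNAs guide the chemical modification of ribosomal RNA: box C/D snoRNAs direct ribose methylation and box H/ACA snoRNAs direct pseudouridylation, while a few, among them U3, U14 and U17, are needed to cleave the pre-rRNA. snRNAs form the core of the spliceosome. The mature forms have no poly(A) tail, but in yeasts precursors and molecules bound for the nuclear exosome can carry one, added by the canonical or the TRAMP poly(A) polymerase, so that a poly(A)+ library reads these RNAs through a small and selected fraction of their molecules. A count here is thus no measure of the mature RNA in the cell, and a change in tailing, in precursor level and in mature RNA cannot be told apart.

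Gene counts per library ran between 12875286 and 14583056. The *siw14* RNA had 13, 12 and 14 counts in *siw14*∆ replicates 1, 2 and 3, against 2014, 2414 and 2377 counts in wild-type replicates 1, 2 and 3, so every library carried the level its label gives. The plus-type mating genes *map2* and *map3* had 77 to 461 counts and the minus-type genes *mfm1*, *mfm2*, *mfm3*, *mam1* and *mam2* had 3 to 1725 counts across the 6 libraries, so neither set was absent from strains labelled h-. Wild-type replicate 2 was the lowest wild-type library in all 5 minus-type genes, furthest so in *mfm2*, a pheromone precursor gene, with 11 counts against 265 and 564 counts in the other wild-type libraries. Results that rest on that library are given below with and without it.

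The sequences were read from RefSeq (build ASM294v3), in which all 60 identifiers were found. The first 3 are shown because they stand for the captured loci: *snoU14* and *snR30* (U17, its last 150 bases, 177 to 326) had the largest counts of their classes and *snoR69b* the next of the box C/D type. Capitals mark the letters TGATGA (C box) within the first 20 bases and CTGA (D box) within the last 20 bases, or, in *snR30*, ACA within the last 10 bases, all on the RNA strand only and written as DNA.
snoU14: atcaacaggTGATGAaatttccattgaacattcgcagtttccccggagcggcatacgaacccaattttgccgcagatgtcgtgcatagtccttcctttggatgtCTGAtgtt
snoR69b: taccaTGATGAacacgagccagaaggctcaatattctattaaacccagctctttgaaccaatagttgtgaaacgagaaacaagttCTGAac
snR30: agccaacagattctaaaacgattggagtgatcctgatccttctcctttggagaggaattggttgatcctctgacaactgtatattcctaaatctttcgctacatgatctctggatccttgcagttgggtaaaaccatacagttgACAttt

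The next 4 had 0 counts in every library and are shown because they are the ones, of 14 such loci, that hold the C box letters; the boxes are in capitals. *snoU24*, annotated at 47 bases and so shorter than the 51-base reads, has the C box letters alone. Of the other snoRNAs at 0, *snoZ3*, *snoZ4*, *snoZ5* and *snoZ7* hold the D box letters alone and *snoR54b* and *sno16* neither.
snoZ8: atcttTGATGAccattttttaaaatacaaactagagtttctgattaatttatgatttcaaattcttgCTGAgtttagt
snoZ30: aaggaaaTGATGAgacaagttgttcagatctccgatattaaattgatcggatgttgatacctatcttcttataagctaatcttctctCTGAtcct
snoR68: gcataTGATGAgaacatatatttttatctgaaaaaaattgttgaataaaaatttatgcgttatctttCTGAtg
snoU24: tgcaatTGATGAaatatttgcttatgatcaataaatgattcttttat

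Both letter runs of box C/D were found in 17 of the 35 other snoRNAs and the D box letters alone or with the C box in 30, while no H/ACA locus had both. Of windows of 85 bases placed along the genome, 0.0489% held the TGATGA and CTGA letters at these places. The ACA letters stood within the last 10 bases of 16 of the 20 H/ACA loci, 3 of the 35 other snoRNAs and 12.7% of the windows. Longer spellings of these boxes were not searched, and a match is a description of the letters.

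Most of the 60 loci left some trace in poly(A)+ RNA, but few left more than a trace. Of the 60, 46 had a count in at least 1 library, 36 had at least 1 count in all 6, 19 had at least 10 counts in all 6 and 3 had at least 50 in all 6. A locus with at least 10 counts in all 6 libraries is called captured below. The other 14 had 0 counts in all 6 libraries, which allows up to 3 counts per library, or 0.206 to 0.233 CPM (of a library's gene counts); such limits and intervals cover counting error only. All 60 loci together held 1568, 1554 and 1500 counts in *siw14*∆ replicates 1, 2 and 3, against 1583, 1412 and 1875 counts in wild-type replicates 1, 2 and 3. This was 0.0113% ± 0.000566 of gene counts in *siw14*∆ cells and 0.0118% ± 0.00198 in wild-type cells (SD, n = 3 each), so the groups overlapped. The annotated rRNA loci had 2265 to 3609 counts and the tRNA loci 29 to 54 counts per library.

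Just 3 loci held 57.1% of the 9492 counts that fell on the 60 loci in the 6 libraries. *snR30* encodes U17, the H/ACA snoRNA needed for cleavage of the pre-rRNA on the way to 18S rRNA. It had 332, 350 and 372 counts in *siw14*∆ replicates 1, 2 and 3, against 499, 329 and 514 counts in wild-type replicates 1, 2 and 3. Wild-type replicate 2 lay among the mutant libraries, and the other wild-type libraries lay above them all. *snoU14*, the C/D snoRNA that pairs with 18S rRNA and is needed for its maturation, had 268, 288 and 242 counts in *siw14*∆ libraries, against 268, 230 and 298 counts in wild-type libraries. *snR101*, an H/ACA locus, had 256, 226 and 202 counts in *siw14*∆ libraries, against 238, 223 and 289 counts in wild-type libraries. For both, the strains overlapped. On a scale per length (RPKM, with RefSeq exon lengths), the 112-base *snoU14* ranked first, at 163 ± 6.25 in *siw14*∆ cells and 182 ± 25.2 in wild-type cells (SD, n = 3 each). On that scale *snR30* had 74.5 ± 8.43 in *siw14*∆ cells and 106 ± 26.2 in wild-type cells (SD, n = 3 each). *snR101* had 57.4 ± 4.69 in *siw14*∆ cells and 70.5 ± 9.62 in wild-type cells (SD, n = 3 each). The mean ± SD ranges of *snR30* and *snR101* overlapped in wild-type cells and not in *siw14*∆ cells.

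**Figure D1:**
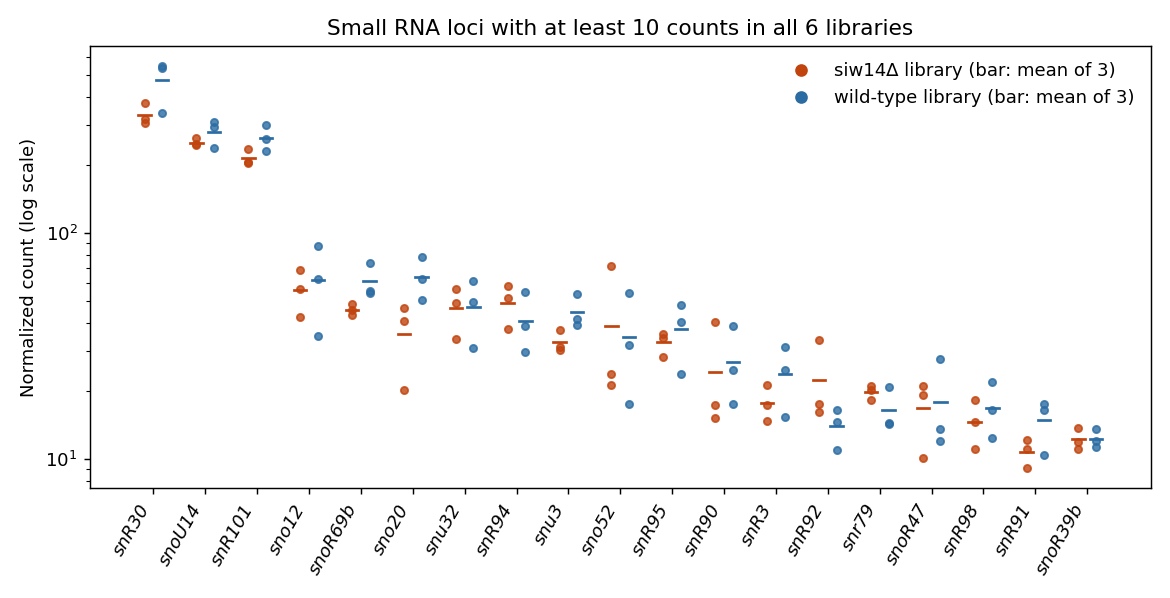
The 19 loci with at least 10 counts in all 6 libraries, in order of mean normalized count (vertical axis, log scale); each point is a library, with *siw14*∆ libraries to the left of wild-type libraries at each locus and a bar at the mean of 3. *snR30*, *snoU14* and *snR101* lie above 200 in every library and the other 16 loci below 100.

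Below these came a group with intermediate counts. The H/ACA locus *sno12* had 46, 62 and 68 counts in *siw14*∆ libraries, against 80, 34 and 60 counts in wild-type libraries. The C/D locus *snoR69b* had 47, 50 and 48 counts in *siw14*∆ libraries, against 67, 54 and 52 counts in wild-type libraries. The H/ACA locus *sno20*, the counterpart of budding yeast snR35 by its RefSeq name, had 22, 45 and 46 counts in *siw14*∆ libraries, against 46, 61 and 75 counts in wild-type libraries. After scaling to library size, neither *snoR69b* nor *sno20* overlapped between strains, while *sno12* did. The H/ACA locus *snR94* had 41, 64 and 51 counts in *siw14*∆ libraries, against 27, 53 and 37 counts in wild-type libraries, with the strains overlapping. *snR95*, of the same class, had 39, 31 and 34 counts in *siw14*∆ libraries, against 37, 23 and 46 counts in wild-type libraries, and the mutant values lay inside the wild-type range.

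*sno52* and *snR90* varied most among the *siw14*∆ libraries of the 10 best counted SPSNORNA loci. *sno52* (snoR52, a C/D locus) had 78, 26 and 21 counts in *siw14*∆ libraries, against 16, 31 and 52 counts in wild-type libraries. *snR90* (H/ACA) had 44, 19 and 15 counts in *siw14*∆ libraries, against 16, 24 and 37 counts in wild-type libraries. In both, *siw14*∆ replicate 1 was the high mutant library and wild-type replicate 3 the high wild-type one, and the strains overlapped throughout.

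**Figure D2:**
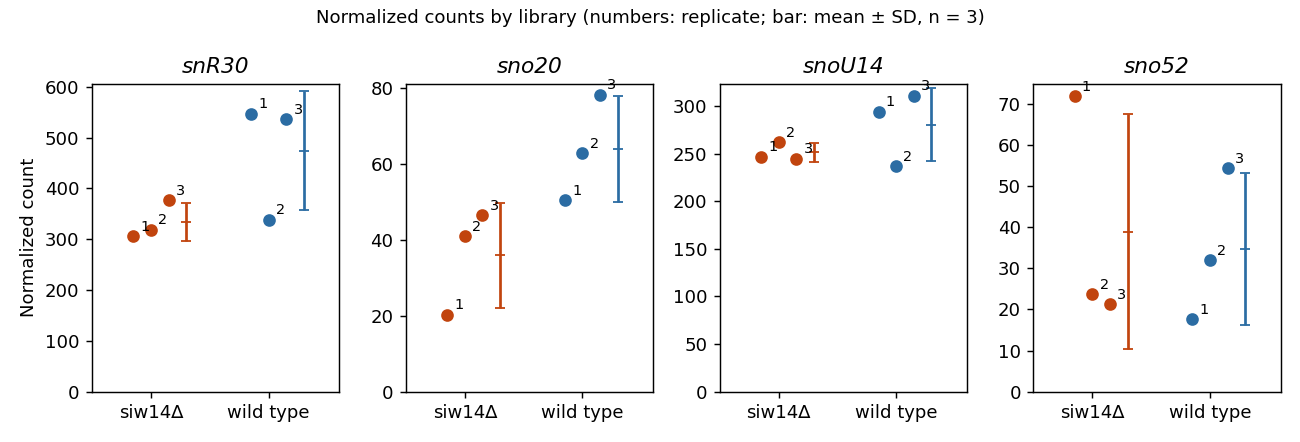
Normalized count per library (vertical axes from 0, a scale of its own for each locus) of *snR30*, *sno20*, *snoU14* and *sno52*, *siw14*∆ left and wild type right; digits give the replicate and bars the mean ± SD (n = 3). For *snR30* wild-type replicate 2 (339) lies among the mutant libraries, for *sno20* the strains do not overlap, and for *sno52* replicate 1 of *siw14*∆ (71.8) is the highest library.

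The spliceosomal snRNAs were close to the detection limit in both strains. *snu1*, which encodes the U1 RNA that pairs with the 5′ splice site, had 1, 2 and 4 counts in *siw14*∆ libraries, against 6, 3 and 3 counts in wild-type libraries. *snu2*, encoding the U2 RNA that pairs with the branch site, had 3, 6 and 12 counts in *siw14*∆ libraries, against 11, 5 and 18 counts in wild-type libraries. It was the only spliceosomal snRNA with enough counts to enter the test, and its strains overlapped (log2 fold change −0.83, 95% interval −2.16 to 0.49, adjusted p = 0.316 from edgeR). The fold change was −1.52 without *siw14*∆ replicate 3, −0.46 without *siw14*∆ replicate 1 and −0.32 without wild-type replicate 3. *snu4*, whose U4 RNA pairs with and restrains U6, had 3, 1 and 0 counts in *siw14*∆ libraries, against 3, 1 and 5 counts in wild-type libraries. *snu5*, whose U5 RNA contacts the exons, had 2 counts in *siw14*∆ replicate 1 and 0 in the other 5 libraries. *snu6*, which encodes the catalytic U6 RNA and is transcribed by RNA polymerase III, had 2, 3 and 8 counts in *siw14*∆ libraries, against 2, 7 and 6 counts in wild-type libraries. Summed, the 5 snRNAs had 11, 12 and 24 counts in *siw14*∆ libraries, against 22, 16 and 32 counts in wild-type libraries, and a change in these RNAs was not detectable at this depth.

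The U3 loci were better counted than any spliceosomal snRNA. *snu3* had 33, 41 and 31 counts in *siw14*∆ libraries, against 49, 38 and 40 counts in wild-type libraries, and after scaling each mutant library lay below each wild-type library. *snu32* (U3B) had 37, 54 and 56 counts in *siw14*∆ libraries, against 45, 30 and 59 counts in wild-type libraries, and overlapped. The log2 fold change was −0.44 (95% interval −1.01 to 0.13, adjusted p = 0.221) for *snu3* and −0.02 (95% interval −0.70 to 0.65, adjusted p = 0.966) for *snu32* by edgeR's quasi-likelihood test. Reads of the copies cannot be fully separated. Of 205 windows of read length (51 bases) in *snu32*, 40 occur at another place in the genome, and no such window was found in any other of the 60 loci.

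The 2 annotated U3 spans are printed to show how they relate, with capitals for the part of each that aligns to the other.
snu3: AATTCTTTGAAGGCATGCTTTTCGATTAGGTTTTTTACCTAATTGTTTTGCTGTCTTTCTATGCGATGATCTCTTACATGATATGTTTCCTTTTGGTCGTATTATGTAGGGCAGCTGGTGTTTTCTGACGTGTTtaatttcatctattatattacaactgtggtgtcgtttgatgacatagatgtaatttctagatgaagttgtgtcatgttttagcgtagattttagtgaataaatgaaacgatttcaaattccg
snu32: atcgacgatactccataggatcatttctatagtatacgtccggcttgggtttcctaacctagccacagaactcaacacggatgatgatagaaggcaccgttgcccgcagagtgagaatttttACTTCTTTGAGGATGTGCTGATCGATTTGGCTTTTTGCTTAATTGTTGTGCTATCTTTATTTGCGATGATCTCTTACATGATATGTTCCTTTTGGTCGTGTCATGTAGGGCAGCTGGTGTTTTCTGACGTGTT
The 255 bases of *snu32* align with 22 differences (91.4% identity) to a stretch that begins 122 bases upstream of the annotated start of *snu3*, and their first 90 bases are identical to it. The ASM294v3 span of *snu3* therefore holds 134 bases that align to U3B and 122 bases past its end. The sources used here do not state which span ASM294v2 gave *snu3*, and so which reads its counts hold, and levels of the copies are not compared for that reason.

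The counts differed with what else is annotated at the place of a locus. In ASM294v3, 8 of the 60 loci lie wholly within an exon of another locus on the same strand that has a row of its own in the count table, and all 8 had 0 counts in all 6 libraries. They are *snoZ3*, *snoZ4*, *snoZ5*, *snoZ7* and *snoZ8* inside *snoZ*, their shared primary transcript, and *snoZ30*, *snoR68* and *snR97* inside 3 other noncoding transcripts. The hosts did have counts. *snoZ* (SPNCRNA.659) had 15, 26 and 15 counts in *siw14*∆ libraries, against 16, 15 and 17 counts in wild-type libraries. The host of *snoZ30* (SPNCRNA.1483) had 64, 46 and 32 counts in *siw14*∆ libraries, against 55, 33 and 60 counts in wild-type libraries. In its default mode HTSeq assigns a read that lies within 2 features to neither, and the sources used here do not state the mode. These zeros thus cannot be told apart from an absence of the RNA, and the part of the counting rule in them was not tested.

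Loci opposite an exon on the other strand mostly had counts. Of 6 loci wholly opposite a counted exon, 5 had counts: *sno52* opposite *taf9*, *sno20* opposite SPBC1921.04c, *snR92* opposite SPNCRNA.1487, *snr79* opposite *gpi12* and *snoR02* opposite *alg3*. The sixth was *snR97*, which also lies within a same-strand exon. *sno52* kept 16 to 78 counts per library beside 582 to 1014 counts of *taf9*, and *snoR02* had 1 count in each of *siw14*∆ replicates 1 and 2 and 0 in the other libraries beside 558 to 848 counts of *alg3*. *sno20* had 22 to 75 counts per library beside SPBC1921.04c, which had 1 count in wild-type replicate 3 and 0 in the other libraries. The sources used here do not state whether counting used strand, so counts of these loci and their partners are uncertain to that extent.

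The remaining surroundings were of 3 kinds. In an exon of a same-strand transcript that has no row in the table lay 7 loci (6 wholly, and *snR91* with 136 of its 144 bases), of which 6 had counts, 3 were captured and the highest count was 30. Within an intron of a protein-coding gene lay 10 loci, of which 9 had counts, 2 were captured and the highest count was 27. With no other locus on the same strand there were 35 loci, of which 31 had counts, 14 were captured and the highest count was 514. The 4 such loci at 0 in all libraries were *snoR54b*, *sno16*, *snR5* and *snR10*, and the other zeros were *snoU24* in an intron and *snR46* in an exon of a transcript without a row.

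**Figure D3:**
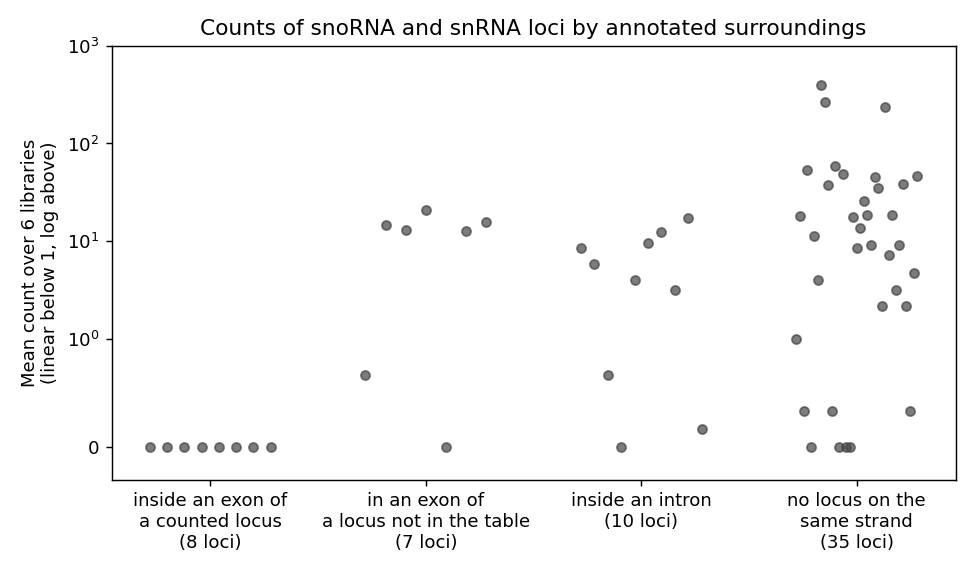
Mean count over the 6 libraries (vertical axis, linear below 1 and logarithmic above) of each of the 60 loci, split along the horizontal axis by what ASM294v3 annotates on the same strand; each point is a locus. All 8 loci inside an exon of a counted locus sit at 0, and every locus with a mean above 100 has no other locus on its strand.

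The intronic snoRNAs had few counts even where the host mRNA was abundant. *snoR39b* lies in an intron of the ribosomal protein gene *rpl701* and had 13, 15 and 11 counts in *siw14*∆ libraries, against 11, 11 and 13 counts in wild-type libraries, while the host had 38478 to 49338 counts per library. Per base this was 0.338% of the host. *snoU24b*, in *cpc2*, the gene of a ribosome-associated WD-repeat protein, had 6 to 10 counts and 0.239% of the host per base. The share was highest, at 27.4%, for *snoZ15* in the prefoldin gene *pfd1* (2 to 21 counts), next at 17.8% for *snoR47* in the kinetochore gene *fta3* (11 to 27 counts), and 4.79% or less for the other 8. *snoU24*, annotated shorter than a read, had no counts in *spt20* (168 to 308 counts), and *snoR39a* had 0.116% of *rlp7* (840 to 2624 counts). How the share relates to host abundance was not tested. The hosts *pfd1* (log2 fold change 0.60, adjusted p = 0.0237) and *fta3* (0.35, adjusted p = 0.0456) were called higher in *siw14*∆ cells by edgeR's quasi-likelihood test. So were *rlp7* (0.73, adjusted p = 0.0244) and *spt20* (0.45, adjusted p = 0.0442), and the other hosts were not called. Over all loci tested, 16.7% were called higher. Of the snoRNAs in these called hosts, only *snoZ15* and *snoR47* had enough counts to be tested. Neither was called, with log2 fold changes of −0.01 (standard error 0.66) for *snoZ15* and −0.10 (standard error 0.43) for *snoR47*. Whether host and snoRNA differed in their change was not tested. Without *siw14*∆ replicate 2, without *siw14*∆ replicate 3, or once a trend over abundance was removed, 0 of all loci were called higher, these hosts included.

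Captured loci had a longer median length than the rest. Among loci of at least 100 bases 14 of 31 were captured, and among those under 100 bases 5 of 29. The median length was 172 bases for the 19 captured loci and 90 bases for the other 41. By class, 11 of 20 H/ACA loci (median 170 bases), 8 of 35 other snoRNAs (median 84 bases) and 0 of 5 snRNAs (median 127 bases) were captured. Among the 35 loci with no other locus on the same strand, 11 of 23 of at least 100 bases and 3 of 12 shorter ones were captured. The part of length in these counts was not tested.

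For the comparison of the strains, 28 of the 60 loci passed the low-count filter of edgeR (25 SPSNORNA loci with *snu2*, *snu3* and *snu32*), which asks for a minimal count in as many libraries as the smaller group holds. The other 32, 14 of them at 0 throughout, were too low to be tested. Of the 28, 0 were called higher and 0 lower in *siw14*∆ cells at an adjusted p of at most 0.05 (edgeR, quasi-likelihood, Benjamini-Hochberg over 5774 loci). Over all loci tested, 16.7% were called higher and 4.99% lower. At an unadjusted p of at most 0.05, 0 of the 28 were higher (24.9% of all loci) and 2 were lower (16.2% of all loci). limma-voom also called 0 of the 28 in each direction. DESeq2 gave 12 of the 60 loci an adjusted p and called *snR30* and *sno20* lower (12.8% of all loci were lower by that tool) and 0 higher.

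*sno20* and *snR30* had the smallest unadjusted p of the 28 loci. *snR30* averaged 334 ± 37.7 normalized counts in *siw14*∆ cells and 474 ± 117 in wild-type cells (SD, n = 3 each). Its log2 fold change was −0.51 (95% interval −0.91 to −0.11, adjusted p = 0.0643 from edgeR) and −0.54 by DESeq2 (adjusted p = 0.0194). Without wild-type replicate 2, the library among the mutant values, edgeR gave −0.70 (adjusted p = 0.00615), and 12.3% of all loci were then called lower. Over the alternatives its adjusted p ran between 0.00615 and 0.243. *sno20* averaged 35.9 ± 13.9 normalized counts in *siw14*∆ cells and 63.9 ± 13.9 in wild-type cells (SD, n = 3 each), lower in each mutant library than in each wild-type library. Its log2 fold change was −0.83 (95% interval −1.54 to −0.13, adjusted p = 0.0775 from edgeR) and −0.86 by DESeq2 (adjusted p = 0.0489), with adjusted p between 0.0489 and 0.220 over the alternatives.

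The RNA of RNase MRP, *mrp1*, is another pre-rRNA processing RNA and no member of the 60. It had 88, 82 and 105 counts in *siw14*∆ libraries, against 185, 66 and 195 counts in wild-type libraries. Its log2 fold change was −0.86 (standard error 0.35, adjusted p = 0.0914 from edgeR), and after scaling wild-type replicate 2 lay below the mutant libraries. Of the 4 structured small noncoding RNAs of other kinds (*mrp1*, the RNase P RNA *rrk1*, the telomerase RNA *ter1* and the signal recognition particle RNA *srp7*), 0 were called in either direction by edgeR. *rrk1* had 113, 141 and 133 counts in *siw14*∆ libraries, against 75, 85 and 108 counts in wild-type libraries, a log2 fold change of 0.38 (adjusted p = 0.175 from edgeR). At an unadjusted p of at most 0.05 *mrp1* was the only one of the 4. DESeq2 called it lower (−0.89, adjusted p = 0.0251), as it did 12.8% of all loci. Without wild-type replicate 2 edgeR gave *mrp1* −1.22 (adjusted p = 0.00415), and 12.3% of all loci were then called lower.

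How many of the 28 fold changes lay above 0 depended on how the libraries were scaled. With TMM factors 9 of the 28 fold changes lay above 0 and 19 below (67.9% below 0, against 49.4% of all loci), with a median log2 fold change of −0.12, against 0.01 over all loci. Scaled to library totals, which moved the median of all loci to 0.18, 17 lay above 0 and 11 below. Their median was then 0.06, still below that of all loci. With a GC trend removed the median was −0.035, against −0.066 over all loci. Other alternatives moved it further down. With a trend over abundance removed it was −0.25, against −0.01 over all loci. Without wild-type replicate 2 it was −0.23, against 0.01 over all loci, with 11 loci above 0 and 18 below. Without wild-type replicate 3, 29 of the 60 loci were tested. Their median was 0.07, against 0.06 over all loci, with 16 above 0 and 13 below. The side on which these loci fell relative to all loci thus also rested on that library. By class, with all libraries and TMM factors, 5 of 14 H/ACA loci lay above 0 and 9 below, and 4 of 13 other snoRNAs above and 9 below. The strains did not overlap for 4 of the 28 (14.3%), *snoR69b*, *sno20* and *snu3* lower and *snR93* higher in *siw14*∆ cells, against 46.9% of all loci (19.2% lower, 27.7% higher). *snR93*, an H/ACA locus, had 10, 11 and 14 counts in *siw14*∆ libraries, against 5, 7 and 8 counts in wild-type libraries (log2 fold change 0.64, standard error 0.43, adjusted p = 0.272 from edgeR).

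The precision of the fold changes differed between loci. The 95% interval of the log2 fold change lay within a 2-fold change either way for 10 of the 28 (35.7%), against 81.8% of all loci. The interval's half-width had a median of 0.82 on the log2 scale, against 0.29 over all loci, and ran between 0.32 for *snoU14* and 1.45 for *snoZ15*. For *snoU14* the interval was −0.47 to 0.16 (log2 fold change −0.16, adjusted p = 0.427), and for *snR101* it was −0.63 to 0.04 (log2 fold change −0.29, adjusted p = 0.163), both from edgeR. Replicates of a strain also differed: the highest library exceeded the lowest by over 2-fold in 9 of the 28 loci among *siw14*∆ libraries and in 12 among wild-type libraries. *snoZ15* spanned a 10.6-fold range among *siw14*∆ libraries, with 21, 2 and 7 counts, and *snoR56* a 15.2-fold range among wild-type libraries, with 1, 7 and 16 counts.

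**Figure D4:**
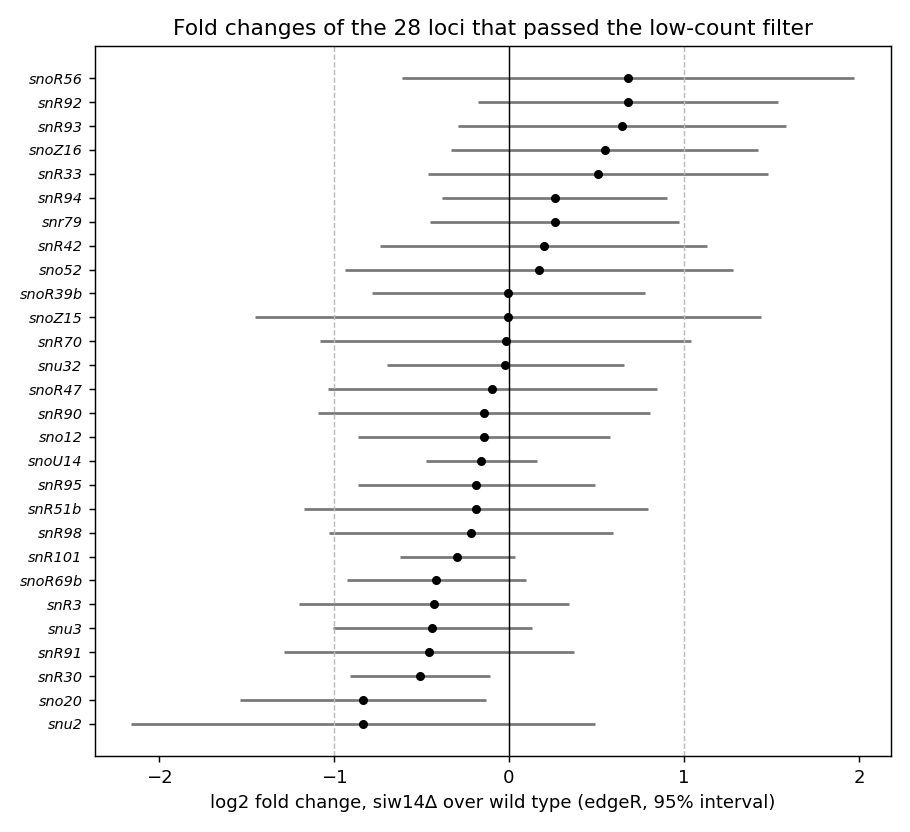
Log2 fold change in *siw14*∆ relative to wild-type cells (horizontal axis, points) with its 95% interval (lines) for the 28 loci that passed the filter, from edgeR, in order from the highest at the top; dashed lines mark 2-fold changes. The intervals of *snR30* and *sno20* alone leave out 0, and 18 of the 28 intervals reach past a 2-fold change.

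Genes for the proteins that bind, mature or degrade these RNAs were tested in the same fit. Among the core proteins that sit on snoRNAs, 0 of 4 box C/D genes (*nop58*, *nop56*, *fib1* and *snu13*) and 0 of 4 box H/ACA genes (*cbf5*, *gar1*, *nhp2* and *nop10*) were called in either direction by edgeR. The methyltransferase mRNA *fib1* had a log2 fold change of −0.15 (adjusted p = 0.382) and the pseudouridine synthase mRNA *cbf5* one of 0.04 (adjusted p = 0.776). At an unadjusted p of at most 0.05 *nop56* (log2 fold change 0.24, adjusted p = 0.0834) was the only one of the 8, and DESeq2 called 0 of them. Scaled to library totals, 2 of the 4 box C/D genes and 1 of the 4 box H/ACA genes were called higher, beside 1368 of all 5774 loci. Of 6 genes of snoRNP assembly and cap trimethylation, 4 were called higher and 0 lower, among them the AAA+ ATPase gene *rvb2* (0.60, adjusted p = 0.0234) and *shq1* (0.87, adjusted p = 0.0234), whose product is a chaperone of the H/ACA pseudouridine synthase.

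Among proteins of the snRNPs, 0 of 7 Sm ring genes were called by edgeR in either direction, and 2 were under 0.05 unadjusted: *sme1* (log2 fold change −0.20, adjusted p = 0.0979) and *smd2* (0.39, adjusted p = 0.117). DESeq2 called 0 of the 7. Without wild-type replicate 2, edgeR called 1 of them higher (1204 of all 5836 loci tested). With the replicate number as a block it called 1 higher (1007 of 5774), and with a GC trend removed 1 lower (942 of 5766). Of 9 genes for the Lsm ring, the La protein and U6 capping, 1 was called higher: *sla1*, the La protein that holds the 3′ ends of RNA polymerase III transcripts (0.44, adjusted p = 0.0317). Of 21 genes for U1, U2 and U4/U6.U5 snRNP proteins, 12 were called higher and 0 lower, with *prp40* (0.65, adjusted p = 0.0234) and *snu66* (0.80, adjusted p = 0.0234) having the smallest p.

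Of 20 genes of the nuclear exosome, TRAMP, Pab2 and the poly(A) polymerase, 12 were called higher and 0 lower. The exosome exonuclease mRNA *rrp6*, whose product trims and degrades snoRNA precursors, had a log2 fold change of 0.82 (adjusted p = 0.0234) and the exosome cap mRNA *csl4* one of 0.56 (adjusted p = 0.0234). *pab2*, the nuclear poly(A)-binding protein that acts with the exosome on polyadenylated snoRNA precursors, had a log2 fold change of −0.18 and was not called (adjusted p = 0.150). Of 21 genes of RNA 3′ end formation and termination, 4 were called higher and 1 lower: *rna14* (0.69, adjusted p = 0.0234), of the cleavage factor, and *pfs2* (0.46, adjusted p = 0.0329) were among the higher ones, and the phosphatase mRNA *dis2* was lower (−0.31, adjusted p = 0.0386). All these values are from edgeR's quasi-likelihood test, beside the 16.7% of all loci called higher, and 0 genes of these lists were called higher without *siw14*∆ replicate 2, without *siw14*∆ replicate 3 or once a trend over abundance was removed. With a GC trend removed, the exosome list had 9 called higher and 3 lower, beside 829 higher and 942 lower of all 5766 loci tested.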

How the data were processed

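Poly(A)+ RNA of 3 *siw14*∆ and 3 wild-type cultures was sequenced with paired reads of 51 bases. Per the methods and the submitters' processing notes, the authors mapped the reads to build ASM294v2 with HISAT2 2.1.0, converted them with SAMtools and counted reads over exons with HTSeq 0.10.0. The deposited table holds these raw counts for 6988 loci, and 5 rows that name no gene, filled in the *siw14*∆ columns alone (35.8%, 31.6% and 34.7% of counts in replicates 1, 2 and 3), were left out. The authors' table of their own comparison (fold changes and p-values from DESeq2) was not used.

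The 28 of 60 loci kept by filterByExpr were tested within a fit to 5774 loci: the quasi-likelihood test of edgeR 4.0.16 (glmQLFit, glmQLFTest, TMM scaling; R 4.3.3) with Benjamini-Hochberg adjustment over all of them. Standard errors follow from the fold change and the F statistic. Normalized counts are counts scaled to the mean effective library size. Names, lengths, surroundings and sequences are from the RefSeq annotation of ASM294v3, matched by identifier (6836 of 6988 loci, all 60 here); since the builds differ, coordinates are left out. Alternatives were DESeq2 1.42.0, limma-voom (limma 3.58.1), other scalings and filters, a loess trend (span 0.3) over abundance or GC content taken out, the replicate number as a block and each library left out. Any of the 60 loci may be named; values in every library are given for the SPSNRNA loci, the 10 SPSNORNA loci with the highest mean and any locus called, and up to 2 genes with the smallest p are named from each list. Values in every library for *snR93*, *snoR39b*, *snoZ15* and *snoR56*, the host and opposite genes, and *fib1*, *cbf5* and *pab2* were chosen after their values were seen. The loci and gene lists were chosen with earlier results of these data known. Replicates of a strain differed beyond sampling noise (chi-square per degree of freedom 8.31 to 35.6 over all loci). They are separate cultures of 1 strain each.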

Additional observations from a re-analysis of the deposited data

How the results depend on the processing

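Of 194 values of the 13 named loci with a fit under the alternatives, 173 kept their direction and remained without a call. Among these is *snu2* with DESeq2, which gave it a fold change but no adjusted p. A further 3 values gained a call (*snR30* with DESeq2 and without wild-type replicate 2, *sno20* with DESeq2) and 18 changed sign, none of these past the threshold. The count of the 60 loci called lower was 2 with DESeq2 and 1 without wild-type replicate 2, against 0 otherwise, and the count called higher was 0 throughout. Scaled to library totals, the log2 fold change was 0.15 for *snu32*, 0.02 for *snoU14*, 0.047 for *sno12* and 0.031 for *snR90*. After removal of a GC trend it was 0.14 for *snu32*, 0.086 for *snoU14* and −0.049 for *sno52*. Leaving out each library in turn, it ran between −0.26 and 0.25 for *snu32*, −0.43 and 0.21 for *sno12*, −0.62 and 0.70 for *sno52*, −0.44 and 0.073 for *snR95*, −0.73 and 0.25 for *snR90*, −0.70 and −0.37 for *snR30*, −1.52 and −0.32 for *snu2*, −1.07 and −0.55 for *sno20*, −0.53 and −0.27 for *snu3*, −0.48 and −0.25 for *snoR69b*, −0.27 and −0.04 for *snoU14*, −0.39 and −0.15 for *snR101*, and 0.094 and 0.52 for *snR94*. The cause of these shifts was not tested.

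Captured loci numbered 36 with at least 1 and 3 with at least 50 counts in all 6 libraries. Over all loci, 965 were called higher and 288 lower. With a trend over abundance taken out these were 0 and 1, and at an adjusted p of at most 0.01 also 0 and 1. The number called lower was 495 with the size factors of DESeq2, 31 with library totals, 942 with a GC trend taken out and 705 with DESeq2. Leaving out each library, 0 to 1204 were higher and 1 to 717 lower, the extremes being *siw14*∆ replicates 2 and 3 (0 higher, 1 lower) and wild-type replicate 2 (1204 higher, 717 lower). Without *siw14*∆ replicate 1, 378 were higher and 1 lower. Without wild-type replicate 1, 785 were higher and 48 lower, and without wild-type replicate 3, 640 and 44.

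Same-numbered libraries correlated at −0.26, 0.18 and −0.16 in their deviations from the strain means. Differently numbered libraries ran between −0.36 (*siw14*∆ replicate 2 with wild-type replicate 3) and 0.44 (*siw14*∆ replicate 1 with wild-type replicate 3). Whether same-numbered samples were handled together cannot be told from these values. With the replicate number as a block, 1007 of all loci were called higher and 156 lower, and 0 of the 60. Most of the 60 loci have too few counts for a 2-fold change to be seen.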
